A study of Mus musculus with 4 samples.

Results

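C-type lectins, Siglecs and galectins are the genes of 3 families of sugar-reading proteins, and their RNA was counted in libraries from entire uteri of pregnant C57 mice at day 4. They were chosen by symbol alone (Clec with a number and a letter, Siglec, or Lgals with a number), which gave 50 of the 54152 symbols in the deposited table: 33 C-type lectin genes, 6 Siglec genes and 11 galectin genes, counting the galectin-binding protein Lgals3bp and 2 galectin pseudogenes. The libraries carried the genotype label p38α dd (2 libraries) or p38α ff (2 libraries), and the series title names the comparison as knockout against wild type. The strain, tissue and day were the same in all 4. The labels do not give the Cre line or promoter behind dd, the deleted part of the gene, the age of the mice, or whether a library is 1 animal or a pool, so the p-values below measure only the spread between these samples.

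C-type lectins share a domain that in many members grips sugars in a calcium-dependent way, while other members bind proteins. Siglecs are cell-surface receptors of the immunoglobulin family that bind sialic acid, and many of them damp immune cell activation. Galectins are soluble proteins that bind galactose-bearing glycans. In the uterus, galectin-1 is abundant in stroma, and many of the Clec and Siglec receptors sit on the resident macrophages, dendritic cells and other leukocytes.

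The libraries held 24619850 and 30868922 counts in dd and 32451670 and 30202955 counts in ff, and the 50 genes took 0.122% and 0.134% of the counts in dd and 0.168% and 0.148% in ff. Mapk14, the gene that encodes p38α, had 2481 and 3429 counts in dd and 3074 and 2710 in ff. That was 104.9 and 113.1 CPM in dd and 92.3 and 86.9 CPM in ff, with both dd libraries above both ff libraries. Mapk14 was not called (log2 of dd over ff 0.28, SE 0.09, edgeR unadjusted p = 0.026, adjusted p = 0.12). Since the labels do not give the deleted part of the gene, these whole-gene counts cannot show whether p38α was lost. Every direction below rests on the labels. Of 9 genes that mark uterus, none was at 0, 2 were called higher in dd (Emx2, and Pgr with 5112 and 6443 counts in dd and 5026 and 4801 in ff) and 2 lower (Hoxa11 and Hoxa10). Of the marker lists, edgeR's quasi-likelihood test called 7 of 15 epithelial genes, 4 of 5 red cell genes, 3 of 3 oviduct genes and 4 of 7 B and plasma cell genes higher in dd, and 11 of 12 blood endothelial, 6 of 13 stromal, 6 of 12 macrophage and 4 of 15 NK and T cell genes lower. Neutrophil markers had 1 of 4 called lower, plasmacytoid dendritic cell markers 1 of 5 lower (Tcf4, which vessels and stroma also use), eosinophil markers 1 of 5 higher (Prg2), and dendritic cell markers 2 of 10 higher (Cd24a and Dpp4, which epithelium also makes) and 2 lower (Batf3 and Itgax). Mast cell, platelet, lymphatic and myometrial markers had 0 called by edgeR among 5, 3, 6 and 8 tested (2 mast cell genes and 1 lymphatic gene higher and 1 mast cell gene lower at an unadjusted p under 0.05). Of all tested genes, edgeR called 3.86% lower and 4.52% higher. The marker calls moved with a library left out. There were 9 higher epithelial genes and 1 higher macrophage gene without ff replicate 2, and the fewest calls came without ff replicate 1, where 1 blood endothelial and 1 epithelial gene and 0 macrophage, stromal, NK and T cell or B and plasma cell genes were called; macrophage and stromal calls were also 0 without dd replicate 1 or dd replicate 2. Whole tissue was sequenced, so fewer cells of a type and less RNA per cell cannot be told apart.

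Among the lectin genes, Clec2d was the single member that passed the test across all genes, and it fell in dd. In all, 35 of the 50 members had enough counts to test; 1 was called lower and 0 higher at an adjusted p under 0.05, or 2.86% of them, where 8.39% of the 18530 genes tested were called (3.86% lower and 4.52% higher). At an unadjusted p under 0.05 there were 16 members lower and 3 higher, against 14.4% of all tested genes lower and 14.9% higher (29.3% in either direction). On the log2 scale, dd over ff was below 0 for 26 tested members and above 0 for 9, with a median of −0.55 where the median of all tested genes was 0.00. The 2 dd libraries lay below both ff libraries for 21 members and above them for 5 members, and the libraries of all tested genes were apart in this way for 31.2% below and 31.6% above, or 62.8% together. Members that are low in 1 group pass a count filter through the other group, so these counts describe the tested members only.

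The count of calls depended on the tool and on the filter. DESeq2 called 8 members lower and 2 higher of the 37 it gave an adjusted p, or 27.0%, where it called 14.7% of all genes (6.91% lower and 7.81% higher). edgeR without a count filter called 8 lower and 3 higher of 45, or 24.4%, against 9.29% of all genes. In both of these Clec10a and Lgals3 were the higher members, joined by Clec2f without a filter, and Clec1a, Clec2d, Clec3b, Clec4a1, Clec4a3, Clec12a, Lgals9 and Siglec1 were the lower ones. The authors' deposited table gives an unadjusted p under 0.05 to 12 members with a fold of dd over ff below 1 and to 4 members with a fold above 1, of 45 members with a count in any library. Over the 31737 genes with a count, the authors' deposited table does so for 4.65% below 1 and 5.29% above 1, or 9.93% in all. Clec2d is not among those members (fold 0.644, unadjusted p 0.17 in the authors' deposited table).

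**Figure D1:**
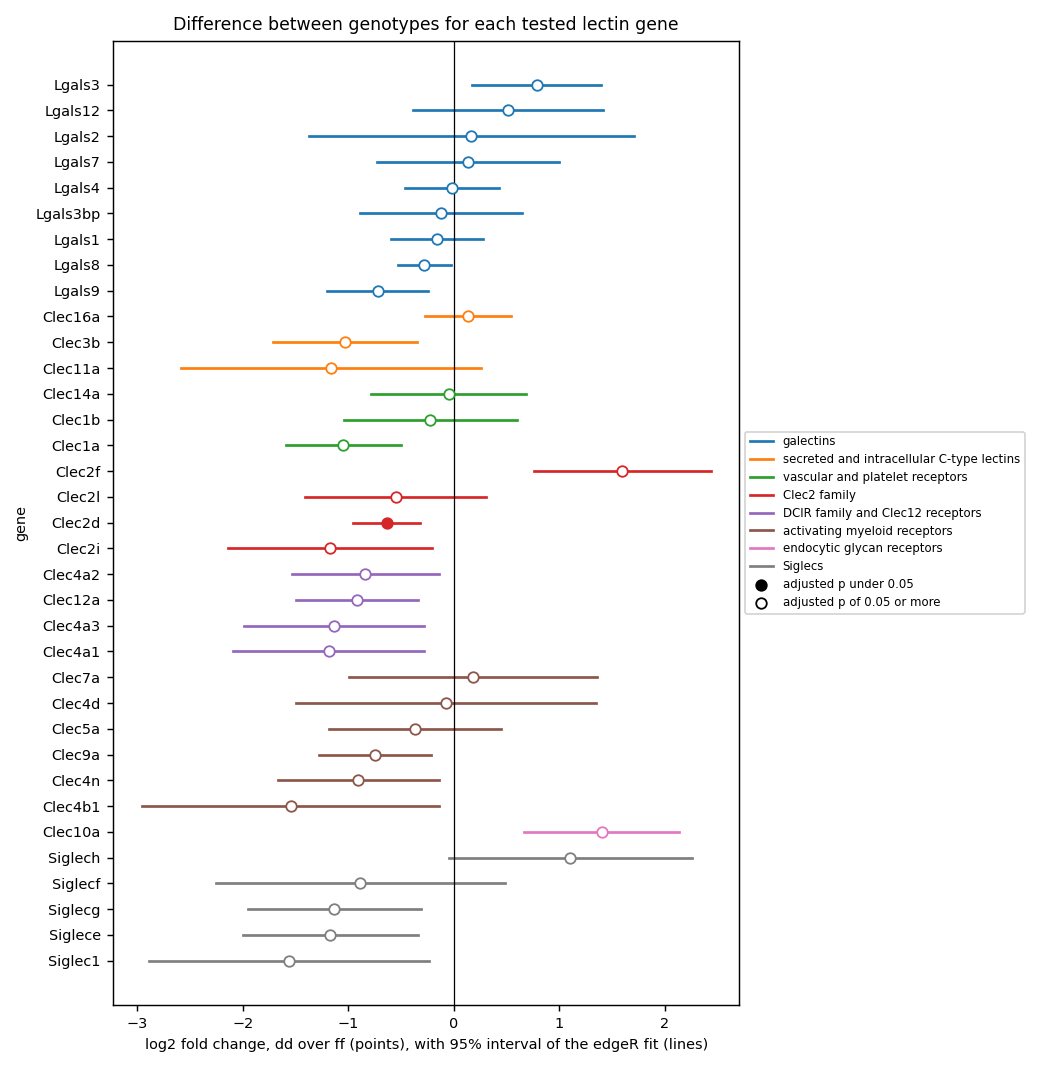
Log2 fold change of dd over ff for the 35 tested genes, with the 95% interval of the edgeR fit as a line, grouped by role (colour). Clec2d is the single filled point; the 3 lectin genes with the highest values are Clec2f at 1.60, Clec10a at 1.40 and Siglech at 1.10, and most other points lie left of 0.

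The Clec2 genes encode C-type lectin-like surface proteins, several of which are ligands that NK cells read through their Klrb1 receptors. Clec2d (chromosome 6, 129180615 to 129186534, plus strand, mm10), whose product Clr-b holds NK cells in check through the inhibitory receptor Klrb1b in mice, had 735 and 851 counts in dd and 1652 and 1318 in ff. Both dd libraries lay below both ff libraries. That came to 29.6 ± 2.13 CPM in dd and 45.9 ± 5.17 CPM in ff (SD, n = 2 each), a fold of 0.644 (log2 −0.64, SE 0.12, 95% interval −0.96 to −0.32, edgeR adjusted p = 0.0482). The size of the difference was close with any library left out (log2 −0.75 to −0.52), but the call was lost in each of those fits, with an adjusted p of 0.0544 without ff replicate 2, 0.107 without dd replicate 1, 0.159 without ff replicate 1 and 0.16 without dd replicate 2. Clec2d had the highest mean FPKM over the 4 libraries of the C-type lectin genes, with 25.5 and 23.3 FPKM in dd and 40.9 and 34.8 FPKM in ff, though Clec3b was above it in ff replicate 1 at 44.1 FPKM.

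Other Clec2 genes were far lower and did not share a direction. Clec2i, which encodes the Klrb1f ligand Clr-g, had 21 and 17 counts in dd and 63 and 42 in ff (log2 −1.17, SE 0.38, adjusted p = 0.121). Clec2f, annotated in GENCODE M21 as a transcribed pseudogene, had 35 and 41 counts in dd and 18 and 12 in ff (log2 1.60, SE 0.32, adjusted p = 0.052). Its dd libraries were both above its ff libraries, opposite to Clec2d, which lies in the same gene cluster. Clec2l, a member known from the nervous system, had 13 counts in each dd library and 23 in each ff library (log2 −0.55, adjusted p = 0.331). The receptors that read these ligands did not pass either: Klrb1b had 27 and 47 counts in dd and 73 and 31 in ff (log2 −0.24, adjusted p = 0.767), and Klrb1f had 21 and 32 in dd and 49 and 52 in ff (log2 −0.68, adjusted p = 0.188). Of 15 NK and T cell markers, 4 fell (Prf1, Nkg7, Eomes and Klrk1, genes of NK and cytotoxic cells), with summed CPM over the list of 33.5 to 46.1 in dd and 97.6 to 113 in ff and none at 0. The T cell genes Cd3g, Trac, Cd3e and Cd3d had log2 values of 0.61, 0.54, 0.20 and −0.03. Of these, 0 were called by edgeR or had an unadjusted p under 0.05. The other 2 T cell genes of the list, Cd8a and Cd4, were among the 12 of 15 markers with log2 values below 0. The part of these NK and T cell markers in the Clec2 values was not tested.

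Clec2d shared 1.98% of the 50-base words of its longest transcript with Clec2g and Clec2i, and Clec2i shared 4.94% with its neighbours. The sources used here do not say how reads shared by such copies were assigned, so a small part of these counts is uncertain.

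Promoter windows show which letters stand before these genes. RefSeq's windows on GRCm38.p6, from 250 bases before to 50 bases after a gene's start, were available for 36 of the 50 members. They were searched on both strands for 5 motifs chosen with the values known: the interferon response core (GAAA, any 2 bases, GAAA), the AP-1 site TGANTCA, the CRE TGACGTCA, the PU.1 site GAGGAAGT and the steroid hormone receptor core AGAACA. The interferon response core was in 4 of the 36 member windows (Clec2d, Clec4b1, Clec4d and Lgals9), or 11.1%, and in 3.49% of 27025 windows of all genes. The AP-1 site was in 6 member windows, or 16.7%, and in 7.93% of all. The CRE and the PU.1 site were in 0 member windows and in 1.88% and 3.28% of all, and the hormone core was in 3 member windows, or 8.33%, and in 19.0% of all. A match describes letters, not a bound site. The windows below are those of Clec2d and of members with an unadjusted p under 0.05 that hold the interferon core (the first 3) or the AP-1 site (the last 2), with the matched letters in capitals; on the minus-strand reading the interferon core appears as its reverse complement.
Clec2d, chr6:129180365-129180664, plus strand: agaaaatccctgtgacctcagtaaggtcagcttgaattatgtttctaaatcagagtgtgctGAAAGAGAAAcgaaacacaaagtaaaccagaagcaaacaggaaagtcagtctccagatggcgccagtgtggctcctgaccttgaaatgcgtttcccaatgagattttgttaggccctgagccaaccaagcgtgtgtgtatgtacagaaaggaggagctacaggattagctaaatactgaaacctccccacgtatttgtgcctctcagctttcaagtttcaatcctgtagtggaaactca
Lgals9, chr11:78984875-78985174, minus strand: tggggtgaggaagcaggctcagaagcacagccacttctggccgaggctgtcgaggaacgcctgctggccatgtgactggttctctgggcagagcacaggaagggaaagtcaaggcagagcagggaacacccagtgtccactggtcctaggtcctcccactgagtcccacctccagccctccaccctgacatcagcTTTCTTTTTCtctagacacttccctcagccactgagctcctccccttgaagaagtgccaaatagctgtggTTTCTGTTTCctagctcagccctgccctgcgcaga
Clec4b1, chr6:123049712-123050011, plus strand: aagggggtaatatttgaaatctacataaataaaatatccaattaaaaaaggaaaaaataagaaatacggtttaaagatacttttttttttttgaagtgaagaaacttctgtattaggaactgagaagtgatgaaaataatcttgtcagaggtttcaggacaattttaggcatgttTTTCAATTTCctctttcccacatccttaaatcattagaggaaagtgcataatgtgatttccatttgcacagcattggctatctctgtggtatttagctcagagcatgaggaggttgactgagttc
Clec12a, chr6:129349994-129350293, plus strand: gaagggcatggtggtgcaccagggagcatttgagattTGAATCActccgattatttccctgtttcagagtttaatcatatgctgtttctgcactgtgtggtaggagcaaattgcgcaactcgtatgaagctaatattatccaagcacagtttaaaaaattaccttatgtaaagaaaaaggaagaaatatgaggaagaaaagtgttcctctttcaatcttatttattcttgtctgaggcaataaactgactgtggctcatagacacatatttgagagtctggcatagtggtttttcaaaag
Clec4a2, chr6:123122440-123122739, plus strand: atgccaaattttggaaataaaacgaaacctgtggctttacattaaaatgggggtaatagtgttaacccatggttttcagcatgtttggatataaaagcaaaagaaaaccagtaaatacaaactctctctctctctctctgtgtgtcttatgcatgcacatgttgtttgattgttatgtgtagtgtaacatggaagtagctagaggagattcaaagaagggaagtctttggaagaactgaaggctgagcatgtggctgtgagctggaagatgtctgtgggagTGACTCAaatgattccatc
Lgals9 holds the interferon core in 2 places, 1 of them downstream of the start, and Clec2d, Clec4b1, Clec12a and Clec4a2 hold 1 match each. Clec4a2's match also lies downstream of the start. The RefSeq starts of Clec12a and Clec4a2 lie inside the genes as GENCODE M21 annotates them, downstream of the GENCODE starts at 129342691 and 123106428. These 5 genes had lower values in dd than in ff, but they were picked among members with a low p, most of which were lower. Of the other carriers, Clec4d (interferon core) had a log2 value of −0.07, and of the AP-1 carriers Clec2g had 5 and 11 counts in dd and 0 and 4 in ff, Clec18a 2 and 5 in dd and 5 and 1 in ff, Clec2e 6 and 5 in dd and 29 and 9 in ff, and Clec2h 0 in both dd libraries and 0 and 13 in ff.

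The DCIR family and the Clec12 receptors of macrophages and dendritic cells include several that carry inhibitory tails that damp the cell. Of these 6 genes, 4 were tested and 0 called by edgeR. All 4 were lower at an unadjusted p under 0.05 in edgeR, with both dd libraries below both ff libraries. Of all tested genes, 14.4% were lower at that threshold and 31.2% had dd below ff in this way. Clec4a1 had 98 and 68 counts in dd and 218 and 247 in ff, or 3.19 ± 1.34 CPM in dd and 7.23 ± 0.976 CPM in ff (log2 −1.19, SE 0.35, edgeR adjusted p = 0.105). Clec4a3 had 85 and 65 counts in dd and 234 and 172 in ff (log2 −1.13, SE 0.33, adjusted p = 0.102). These neighbouring paralogues were close to each other in size of difference. Clec12a, an inhibitory receptor for crystals of uric acid, had 120 and 142 counts in dd and 263 and 329 in ff (log2 −0.92, SE 0.22, adjusted p = 0.0742). Clec4a2, which encodes the inhibitory receptor DCIR itself, had 63 and 57 counts in dd and 133 and 128 in ff (log2 −0.84, SE 0.27, adjusted p = 0.124). DESeq2 called Clec4a1, Clec4a3 and Clec12a lower (adjusted p = 0.0258, 0.0331 and 0.0166). Clec4a2 shared 8.36% of its 50-base words with other genes, mostly Clec4a4 and Clec4b1. Clec12b had 3 and 4 counts in dd and 10 in each ff library and was not tested, nor was Clec4a4, with 1 count in all.

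Among activating myeloid receptors, which signal through Syk or through the adaptor Fcer1g, 6 of 8 were tested and 0 called by edgeR or DESeq2. In edgeR 3 were lower at an unadjusted p under 0.05, as were 14.4% of all tested genes. Clec9a, by which cross-presenting dendritic cells sense dead cells, had 88 and 136 counts in dd and 226 and 218 in ff (log2 −0.74, SE 0.21, adjusted p = 0.0934). Clec4n (Dectin-2) had 23 and 22 counts in dd and 52 and 50 in ff (log2 −0.90, SE 0.30, adjusted p = 0.127). The ff libraries of both genes were nearly alike and the dd libraries sat below them. Clec4b1, an activating partner of the DCIR family, had 9 and 4 counts in dd and 27 and 20 in ff (log2 −1.55, SE 0.55, adjusted p = 0.146). Clec7a (Dectin-1, the receptor for fungal beta-glucan) ran differently, with 159 and 215 counts in dd and 115 and 272 in ff. The ff libraries stood 2.53-fold apart in CPM and enclosed both dd libraries, so no direction could be read (log2 0.18, SE 0.46, adjusted p = 0.818; −0.34 without ff replicate 1). Clec5a had a log2 value of −0.37 and Clec4d of −0.07, each with under 30 counts in every library.

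Clec10a, the galactose-type receptor by which macrophages and dendritic cells take up glycoproteins, had the opposite direction. It had 360 and 288 counts in dd and 144 and 156 in ff, so both dd libraries were well above both ff libraries. That was 12.4 ± 4.05 CPM in dd and 4.66 ± 0.482 CPM in ff (fold 2.65, log2 1.40, SE 0.28, 95% interval 0.67 to 2.14), which missed edgeR's threshold (adjusted p = 0.0521) and passed DESeq2's (adjusted p = 0.000451). With dd replicate 1 left out the log2 value was 1.03, against 1.71 with dd replicate 2 left out. Its closest paralogue, Mgl2, had 133 and 128 counts in dd and 174 and 126 in ff (log2 0.08, adjusted p = 0.858), and 10.6% of the 50-base words of Clec10a also occur in Mgl2. Clec4f and Clec4g, endocytic receptors known from liver, were not tested, Clec4f with 0 counts in every library and Clec4g with 2 to 8.

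Macrophage markers give the setting for these receptors. Of 12 tested, 6 fell (C1qc, C1qa, C1qb, Fcgr1, Adgre1 and Cx3cr1) and 0 rose, their summed CPM was 366 to 370 in dd and 406 to 481 in ff, and none was at 0. Cd14, a lipopolysaccharide co-receptor of macrophages lay on the other side, with 144 ± 4.67 CPM in dd and 67.6 ± 22.6 CPM in ff (log2 1.09, edgeR adjusted p = 0.0604), and DESeq2 called it higher. C1qa, a complement component made by tissue macrophages, had 44.6 ± 0.641 CPM in dd and 83.2 ± 7.46 CPM in ff (log2 −0.90, adjusted p = 0.0227). Cd68, another macrophage gene, had 19.9 ± 5.02 CPM in dd and 22.1 ± 1.88 in ff (log2 −0.15, adjusted p = 0.666). Dendritic cell markers had summed CPM of 1049.8 to 1222 in dd and 561 to 606 in ff, with none at 0, a sum that is mostly Cd24a (817 and 983 CPM in dd, 316 and 404 CPM in ff). Of the 10 dendritic cell markers, 7 had log2 values below 0, with a median of −0.41. The part of both marker lists in the receptor values was not tested. For Clec10a and Siglec1, a pair chosen after their values were seen, the counts of Clec10a divided by those of Siglec1 gave 3.08 and 5.65 in dd and 0.422 and 0.547 in ff.

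**Figure D2:**
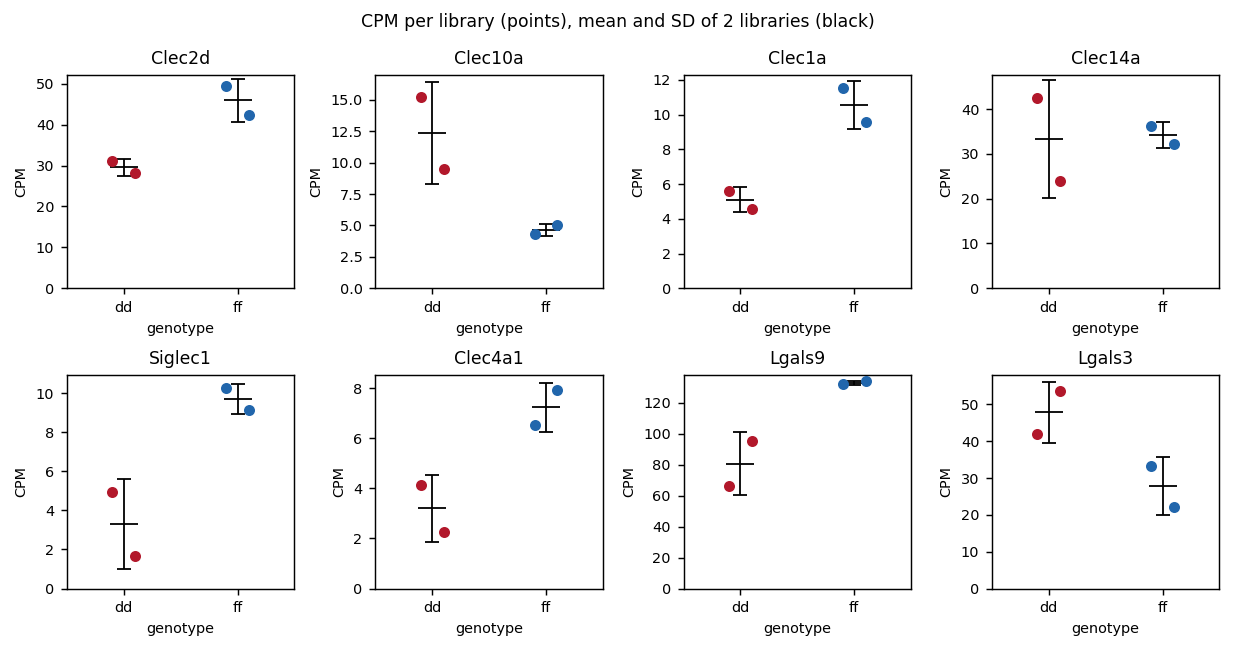
CPM of 8 genes in each library (points) with the mean and SD of 2 libraries (black), dd left of ff, each axis starting at 0. Clec2d, Clec1a, Siglec1, Clec4a1 and Lgals9 have both dd points below both ff points, Clec10a and Lgals3 have them above, and Clec14a overlaps.

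Siglecs had 5 of 6 members tested and 0 called by edgeR, and DESeq2 called Siglec1. At an unadjusted p under 0.05 in edgeR 3 were lower, as were 14.4% of all tested genes. Siglec1 (sialoadhesin, the sialic acid receptor of tissue macrophages) had 117 and 51 counts in dd and 341 and 285 in ff, or 3.31 ± 2.31 CPM in dd and 9.69 ± 0.773 CPM in ff. The dd libraries were 2.94-fold apart and both below ff (log2 −1.56, SE 0.51, edgeR adjusted p = 0.128; DESeq2 adjusted p = 0.0186). Its log2 value was −2.52 without dd replicate 1, where it passed (adjusted p = 0.0329), and −0.97 without dd replicate 2, where it did not. Siglece, an inhibitory Siglec of neutrophils and macrophages, had 36 and 43 counts in dd and 86 and 126 in ff (log2 −1.17, SE 0.32, adjusted p = 0.0922). Siglecg, an inhibitor of B cell receptor signalling, had 20 and 19 counts in dd and 59 and 45 in ff (log2 −1.13, SE 0.32, adjusted p = 0.0952). B and plasma cell markers were higher in the same libraries, with 4 of 7 called (Jchain, Derl3, Cd79a and Cd79b), summed CPM of 712 to 1243 in dd and 308 to 463 in ff, and none at 0, so the values of Siglecg and of these markers ran in opposite directions.

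Siglech, a marker of plasmacytoid dendritic cells, had higher values in dd, with 52 and 34 counts there and 21 and 28 in ff (log2 1.10, SE 0.45, adjusted p = 0.184). Of the 5 other markers listed for that cell type, Ly6d had values on the same side, with 24 and 32 counts in dd and 14 and 15 in ff (log2 1.19, edgeR adjusted p = 0.0816). Ccr9 had 8 and 11 counts in dd and 14 and 7 in ff, Bst2 and Spib had log2 values of 0.14 and −0.52 (adjusted p = 0.392 and 0.53), and Tcf4 fell by 0.71. Siglecf, the Siglec of eosinophils, had 6 and 9 counts in dd and 11 and 22 in ff (log2 −0.88, adjusted p = 0.327), and eosinophil markers went both ways. Ccr3, Ear2 and Cd300lf had log2 values of −1.02, −0.91 and −1.15 (adjusted p = 0.397, 0.246 and 0.101), Alox15 had 1.16 (0.226), and the list's median was −0.91. The eosinophil granule gene Prg2 rose to 4.74 ± 2.16 CPM in dd, against 0.439 ± 0.196 CPM in ff (log2 3.43, adjusted p = 0.0314), a call that was lost without dd replicate 2. Siglec15 had 7 counts over the 4 libraries and was not tested.

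Lectins of vessels and platelets split. Clec1a, an endothelial receptor of fungal melanin, had 133 and 139 counts in dd and 384 and 298 in ff, with both dd libraries below ff. That was 5.10 ± 0.735 CPM in dd and 10.5 ± 1.39 CPM in ff (fold 0.484, log2 −1.05, SE 0.21, edgeR adjusted p = 0.0513, DESeq2 adjusted p = 0.00233), and it passed edgeR with upper quartile factors (adjusted p = 0.0481) or the library size (0.0389) as the scaling. Clec14a, a surface protein of blood endothelium, had 1006 and 725 counts in dd and 1210 and 1004 in ff. Its dd libraries, at 42.5 and 23.9 CPM, lay on either side of its ff libraries at 36.3 and 32.2 CPM (log2 −0.05, SE 0.28, 95% interval −0.78 to 0.69, adjusted p = 0.93). Without dd replicate 2 its log2 value was 0.31, and without dd replicate 1 it was −0.51.

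Blood endothelial markers fell in the same libraries, 11 of 12 called lower with summed CPM of 865 to 882 in dd and 1594 to 1888 in ff and none at 0. So Clec1a had values in the direction of these markers and Clec14a did not, and whether those 2 genes differ from each other was not tested. Multimerin 2 (Mmrn2), the matrix ligand of Clec14a and Cd93, fell to 40.8 ± 2.15 CPM in dd, against 72.6 ± 7.05 CPM in ff (log2 −0.83, adjusted p = 0.0257). Clec1b (CLEC-2, the platelet receptor for podoplanin) had 12 and 16 counts in dd and 20 and 19 in ff (log2 −0.22, adjusted p = 0.696), in libraries where 0 of 3 tested platelet markers had an unadjusted p under 0.05 in edgeR. Pdpn, the gene of podoplanin, had 464 and 398 counts in dd and 1275 and 658 in ff (log2 −0.86, adjusted p = 0.185).

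Among secreted and intracellular C-type lectins, 3 of 5 were tested and 0 called by edgeR. At an unadjusted p under 0.05 in edgeR 1 was lower, as were 14.4% of all tested genes. Clec3b (tetranectin, a plasminogen-binding matrix protein) had 422 and 494 counts in dd and 1457 and 815 in ff. Both dd libraries lay below ff, and the ff libraries were 1.67-fold apart in CPM (log2 −1.03, SE 0.26, edgeR adjusted p = 0.0814, DESeq2 adjusted p = 0.00477). Without ff replicate 2 it passed (log2 −1.36, adjusted p = 0.0234), and without ff replicate 1 its log2 value was −0.62. Clec11a (osteolectin, a growth factor of bone-forming stroma) had 351 and 147 counts in dd and 879 and 543 in ff (log2 −1.16, SE 0.55, adjusted p = 0.237). Its dd libraries were 3.06-fold apart, the widest spread of any tested member within dd. Stromal markers were lower beside them, 6 of 13 called (Pdgfra, Fn1, Pdgfrb, Vim, Hoxa11 and Hoxa10), with summed CPM of 7829 to 10989 in dd and 14354 to 16198 in ff and none at 0. Their part in the Clec3b and Clec11a values was not tested. Clec16a, which encodes an endolysosomal protein and not a lectin of the surface, had 604 and 1010 counts in dd and 915 and 818 in ff (log2 0.13, adjusted p = 0.615).

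Galectins held most of the lectin RNA per length. Counting Lgals3bp with them, edgeR tested 9 and called 0, with 2 lower and 1 higher at an unadjusted p under 0.05. Over all tested genes, 14.4% were lower and 14.9% higher at that threshold. Galectins and Lgals3bp took 91.6% and 93.2% of the summed FPKM of all 50 genes in dd and 89.7% and 89.8% in ff. Lgals1, a prototype galectin of stroma and decidua tied to maternal immune tolerance, alone took 77.6% and 72.6% in dd and 74.9% and 70.1% in ff. It had 790 and 745 FPKM in dd and 974 and 738 FPKM in ff, so the groups overlapped in CPM (log2 −0.16, SE 0.17, 95% interval −0.59 to 0.27, adjusted p = 0.573). Lgals3bp, a secreted glycoprotein that galectin-3 binds, had 60.0 and 111 FPKM in dd and 85.3 and 99.96 FPKM in ff (log2 −0.12, SE 0.30, adjusted p = 0.817).

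Lgals9 and Lgals3 had values on opposite sides. Lgals9, a tandem-repeat galectin that binds the T and NK cell receptor Tim-3, had 1565 and 2887 counts in dd and 4399 and 4175 in ff, or 80.7 ± 20.5 CPM in dd and 133 ± 1.34 CPM in ff. The ff libraries were nearly equal and both dd libraries were below them (log2 −0.72, SE 0.19, edgeR adjusted p = 0.0824, DESeq2 adjusted p = 0.0103). It passed edgeR without dd replicate 2 (log2 −1.005, adjusted p = 0.048) and had a log2 value of −0.48 without dd replicate 1. Lgals3, the chimera galectin found in uterine epithelium and macrophages, had 992 and 1630 counts in dd and 1111 and 691 in ff, or 47.9 ± 8.35 CPM in dd and 27.8 ± 7.90 CPM in ff, with both dd libraries above ff (log2 0.79, SE 0.24, edgeR adjusted p = 0.109, DESeq2 adjusted p = 0.0293). For this pair, chosen after the values were seen, the counts of Lgals3 over Lgals9 were 0.634 and 0.565 in dd and 0.253 and 0.166 in ff. Epithelial markers were higher in dd, with 7 of 15 called and 15 above 0, summed CPM of 3166 to 3703 in dd and 1327 to 1600 in ff, and none at 0. Their part in the Lgals3 values was not tested.

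Of the remaining galectins 0 were called by edgeR, and Lgals8 was lower at an unadjusted p under 0.05. Lgals8, a tandem-repeat galectin that senses damaged endosomes, had 61.4 and 57.8 CPM in dd and 68.4 and 76.1 CPM in ff (log2 −0.28, SE 0.10, adjusted p = 0.141), and 5.30% of its 50-base words also occur in other transcripts, mostly Heatr1, which overlaps it on the opposite strand. Lgals4 had 335 and 552 counts in dd and 517 and 539 in ff (log2 −0.02, 95% interval −0.47 to 0.43). Lgals2, Lgals7 and Lgals12 had between 13 and 60 counts in every library and log2 values of 0.17, 0.13 and 0.51, with wide intervals (−1.37 to 1.71 for Lgals2); for Lgals12 both dd libraries were above ff in CPM. Havcr2, the gene of Tim-3, had 19 and 64 counts in dd and 51 and 47 in ff (log2 −0.04, adjusted p = 0.966).

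**Figure D3:**
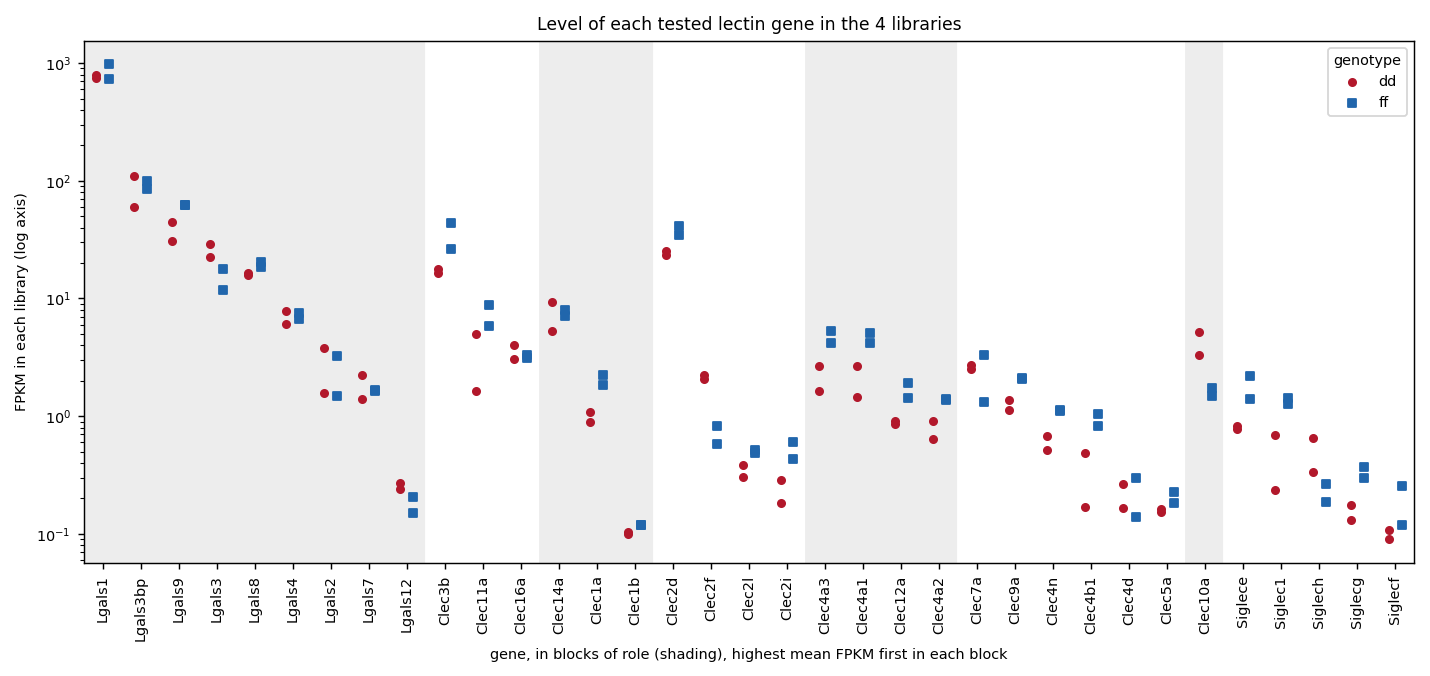
FPKM of the 35 tested genes in each library on a log axis, dd circles left of ff squares, in shaded blocks of role. Lgals1 lies between 738 and 974 FPKM, Clec2d lies between 23.3 and 40.9 FPKM and Clec3b between 16.5 and 44.1 FPKM, and each tested Siglec is at or below 2.18 FPKM in every library.

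Position shows how the C-type lectins are arranged. Of the 33, 25 lie on chromosome 6, mostly in 3 clusters (mm10 coordinates). In the cluster from Clec4a1 to Clec4e (122921848 to 123289870), 6 of 9 genes were tested and all 6 had values below 0, with a median log2 value of −1.02 and Clec4d at −0.07. In the cluster from Clec2j to Clec2d (128652416 to 129186534), 3 of 7 were tested, with Clec2i and Clec2d below 0 and Clec2f above. In the cluster from Clec12a to Clec7a (129342691 to 129472779), 5 of 6 were tested, with 4 below 0 and Clec7a above. Clec9a and Clec1a, which are annotated 9 bases apart, had log2 values of −0.74 and −1.05, and Clec7a next to Clec1a had 0.18, with an interval of −0.99 to 1.36; whether these neighbours differ from each other was not tested. Clec1b and Clec9a overlap by part of an exon on the same strand, so reads there cannot be assigned to either from position alone.

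**Figure D4:**
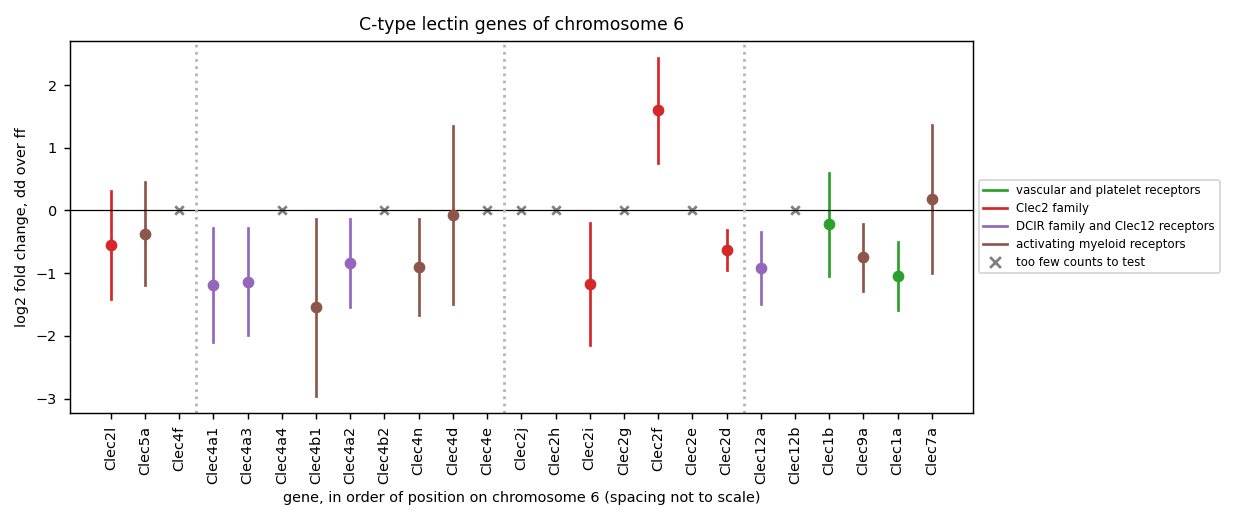
Log2 fold change of dd over ff, with the 95% interval, for the 25 C-type lectin genes of chromosome 6 in order of position, spacing not to scale, dotted lines between clusters and crosses for genes with too few counts to test. The 6 tested genes from Clec4a1 to Clec4d lie below 0, and Clec2f stands alone above 1.

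Lectins outside the symbol rule gave more calls than the members. The list of C-type lectin domain genes under other names also held Kit, a receptor kinase without that domain (log2 −0.79, not called). Of its 37 tested genes, 11 fell and 0 rose (median log2 −0.77), where 3.86% of all tested genes were called lower and 4.52% higher. With a library left out, the counts were 0 lower and 1 higher without ff replicate 1, 7 lower without ff replicate 2, 4 lower without dd replicate 1 and 3 lower without dd replicate 2. The 4 with the smallest p were Ly75, Klre1, Klrg1 and Cd72. Ly75 (DEC-205, an uptake receptor of dendritic cells) fell to 8.63 ± 1.32 CPM in dd, against 34.9 ± 1.67 CPM in ff (log2 −2.01, SE 0.15, adjusted p = 0.016). Klre1, an NK cell receptor, had 45 and 60 counts in dd and 288 and 254 in ff (log2 −2.11, adjusted p = 0.0191), and Klrg1, a receptor of mature NK and T cells, had 2 and 9 in dd and 113 and 86 in ff (log2 −3.92, adjusted p = 0.0264). Cd72, an inhibitory receptor of B cells, fell by 1.23 on the log2 scale (adjusted p = 0.0311). The first 3 of these kept their calls without any library other than ff replicate 1, and Cd72 lost its call without any 1 library. The others called lower were the NK receptors Klrk1, Klrd1 and Klri2, the selectins Sele and Selp and the endothelial genes Cd93 and Thbd. Mrc1, the macrophage mannose receptor, had 502 and 314 counts in dd and 1357 and 1035 in ff (log2 −1.23, adjusted p = 0.101). Of the sialic acid and galectin fold genes with other names (Cd22, Cd33, Mag and Lgalsl), 0 of 4 were called by edgeR, and Lgalsl was higher at an unadjusted p under 0.05 (log2 0.74).

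Of 18 signalling genes of these receptors, edgeR called Fcer1g and Inpp5d lower and 0 higher (median log2 −0.07). Of all tested genes it called 3.86% lower and 4.52% higher. At an unadjusted p under 0.05 in edgeR, 6 of the 18 were lower and 3 higher. The higher ones were the kinases Prkcd, Lyn and Src with log2 values of 0.51, 0.44 and 0.38 (adjusted p = 0.0676, 0.0557 and 0.0638). DESeq2 called 2 higher (Prkcd and Lyn) and 4 lower (Fcer1g, Inpp5d, Tyrobp and Vav1). Without a filter, edgeR called 2 higher and 3 lower. Fcer1g, the adaptor that carries the signal of Clec4e, Clec4d, Clec4n and Clec4b1, fell to 19.1 ± 1.28 CPM in dd, against 55.2 ± 1.68 CPM in ff (log2 −1.53, SE 0.10, adjusted p = 0.0147); without ff replicate 1 its adjusted p was 0.0501. Inpp5d, the inositol phosphatase SHIP1, fell by 0.58 on the log2 scale (adjusted p = 0.0429) and lost its call without any 1 library. Tyrobp, the adaptor of Clec5a and Siglech, had 14.6 ± 0.299 CPM in dd and 22.9 ± 3.002 CPM in ff (log2 −0.65, edgeR adjusted p = 0.0632, DESeq2 adjusted p = 0.0157). Syk, the kinase downstream of Clec7a, had a log2 value of −0.51 (adjusted p = 0.112) and its effector Card9 of −0.80 (adjusted p = 0.104).

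Binding partners held 5 genes that fell and 1 that rose among 15 tested (median log2 −0.68). Of all tested genes, edgeR called 3.86% lower and 4.52% higher. Klrb1b and Klrb1f, neither called, are also in the list of other C-type lectin domain genes. Ptprc (CD45, a galectin-binding phosphatase of leukocytes) fell to 19.9 ± 1.64 CPM in dd, against 46.4 ± 1.61 CPM in ff (log2 −1.23, adjusted p = 0.0166). Nrp1 and Cd248 fell by 1.18 and 0.83 on the log2 scale (adjusted p = 0.0214 and 0.0289), and Spn, the leukocyte sialoglycoprotein CD43, by 1.31 (adjusted p = 0.0399). Plat, the tissue plasminogen activator, rose to 422 ± 207 CPM in dd, against 104 ± 24.0 CPM in ff (log2 2.02, adjusted p = 0.0471), and kept its call with dd replicate 1 left out but not with any other library left out. Ptprc kept its call in 3 of the 4 fits with a library left out, Nrp1 in 2, Mmrn2 in 1, and Cd248 and Spn in 0. The counts of this list were 0 lower without ff replicate 1, 3 lower without ff replicate 2, 2 lower and 1 higher without dd replicate 1 and 1 lower without dd replicate 2.

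Enzymes that make or trim the sugars these lectins read had 3 genes higher and 1 lower among 41 tested (median log2 −0.15). Of all tested genes, edgeR called 4.52% higher and 3.86% lower. Among the enzymes, 28 had log2 values below 0 and 13 above, and 10 were lower and 5 higher at an unadjusted p under 0.05. DESeq2 called 4 higher and 5 lower, as did edgeR without a filter. Neu1, the lysosomal sialidase, rose to 61.4 ± 0.364 CPM in dd, against 40.9 ± 0.957 CPM in ff (log2 0.59, adjusted p = 0.0279). Gcnt2, which branches the galactose-bearing chains that galectins bind, rose by 0.56 on the log2 scale (adjusted p = 0.0394). St6galnac2, which adds sialic acid to O-glycans, rose by 1.07 (adjusted p = 0.0402). St3gal6, another sialyltransferase, fell to 23.9 ± 0.0441 CPM in dd, against 46.5 ± 5.78 CPM in ff (log2 −0.96, adjusted p = 0.0255). Without ff replicate 2, 1 gene was higher and 2 lower, and 0 were called by edgeR without any other single library; Neu1 and Gcnt2 lost their calls in each such fit. With the library size as the scaling the split was 2 higher and 4 lower. Summed over the 44 enzymes, CPM was 1589 and 1658 in dd and 1615 and 1540.5 in ff.

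**Figure D5:**
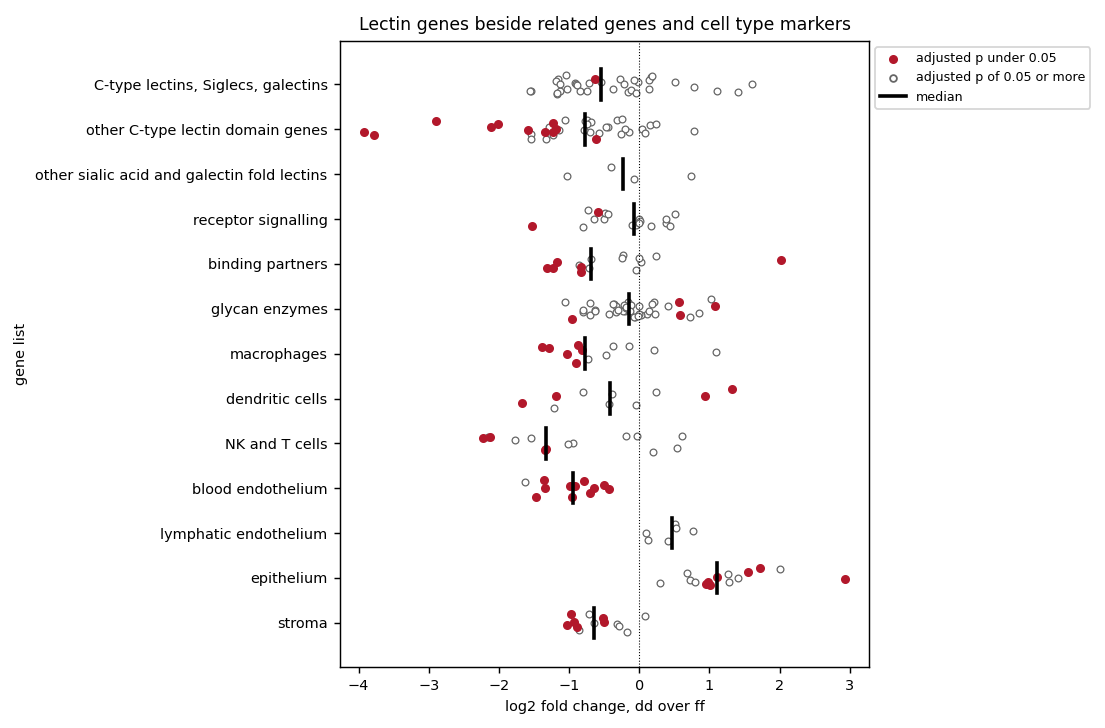
Log2 fold change of dd over ff for tested genes (points, red where called) of the lectin genes and of related and marker lists, with each list's median as a bar; vertical scatter within a list carries no value. The lectin genes have a median of −0.55 and 1 called point. Other C-type lectin domain genes, a list that also holds Kit, have a median of −0.77 and 11 called points. Epithelial markers have a median of 1.11.

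The 15 members that were not tested had few counts. Clec3a, Clec4b2, Clec4f and the pseudogenes Lgals1-ps1 and Lgals1-ps2 had 0 counts in every library, where 3 counts correspond to 0.122 and 0.0972 CPM in the dd libraries and 0.0924 and 0.0993 CPM in the ff libraries (counting error only). Clec2h had 13 counts in ff replicate 2 and 0 in the other 3 libraries. Clec2e had 6 and 5 counts in dd and 29 and 9 in ff, Clec2g had 5 and 11 in dd and 0 and 4 in ff, and Clec4e (Mincle) had 5 and 3 in dd and 11 and 9 in ff. Clec18a had between 1 and 5 counts per library, and Clec2j and Clec4a4 had 1 count in all, in ff replicate 2. The authors' deposited table gives an unadjusted p of 0.00178 to Clec2h, 0.0281 to Clec2g and 0.0301 to Clec2e, which edgeR's filter on low counts left untested.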

How the data were processed

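RNA was sequenced from whole uteri on day 4 of pregnancy in 2 dd and 2 ff libraries. TRIzol extraction and TruSeq library preparation are stated per the labels' protocols, and poly-A selection in the design text. STAR, edgeR and the mm10 build are named per the submitters' processing notes. Which program counted reads, with which gene models and whether by strand, the sources used here do not give. The deposited table holds whole-number counts per gene and library, FPKM values computed by the authors per the file headers (the design text says RPKM), rescaled counts (a signal column, deposited by the authors and not tested here), a ratio of dd over ff (the authors' fold) and an unadjusted p-value of the authors whose test no source used here names. Gene positions came from GENCODE M21 (same build), which held all 50 symbols.

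From the counts, dd was tested against ff in R 4.3.3 with edgeR 4.0.16, using filterByExpr, TMM, glmQLFit and glmQLFTest, on all 4 libraries without a block, with Benjamini-Hochberg adjustment over 18530 genes and a threshold of 0.05. The biological coefficient of variation was 0.185. CPM uses TMM-scaled totals; SD is over 2 libraries. The same pipeline was tested on simulated counts with known changes. It called 26.5% of true 0.5-fold and 34.4% of true 2-fold changes. Of true 0.25-fold and 4-fold changes it called 95% and 99.2%. The simulation gave every gene the same biological spread and changed fewer genes than edgeR called in the data. These rates therefore do not give the power of the test on these data. Levels of different genes were compared in FPKM. Depth is in the report; totals of 24619850 to 32451670 counts set the precision. Over genes, the difference between the dd replicates and that between the ff replicates had a correlation of 0.009. So no pairing by replicate number was seen, but this cannot show whether same-numbered libraries shared a day or litter. Alternatives were other scalings, no filter, DESeq2 1.42.0, limma-trend (limma 3.58.1) on log2(FPKM + 0.5), a replicate block and each library left out. Named with values per library were members called, members with an unadjusted p under 0.05 and the 3 with the highest FPKM of each role; other members are given by their counts or log2 values. From related lists, the called genes with the 4 smallest p and 6 fixed partners were to be named, and others named were chosen after their values were seen. The members, lists and roles were chosen with earlier results of these data known.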

Additional observations from a re-analysis of the deposited data

How the results depend on the processing

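Over all members, 0 were called higher and 1 lower by edgeR; the counts higher and lower were 3 and 8 without a filter, 2 and 8 with DESeq2's test, 1 and 0 with limma-trend on log2(FPKM + 0.5), and 0 and 2 with upper quartile factors or library size without TMM factors. With DESeq2's size factors or the replicate block they were 0 and 1, and with a library left out 0 higher and 0 to 1 lower, but not the same gene: Siglec1, Lgals9 and Clec3b were called in turn without dd replicate 1, dd replicate 2 and ff replicate 2. Over related lists, 4 genes were called higher and 19 lower; higher calls were 8 without a filter, 8 with DESeq2 and 2 with limma-trend, and a library left out gave 0 to 2 higher and 0 to 13 lower. Over all genes, higher and lower calls were 1584 and 1363 without a filter, 1518 and 1342 with DESeq2, and 62 to 726 and 28 to 472 with a library left out, fewest without ff replicate 1. With upper quartile factors 748 were higher and 830 lower, and with the library size 751 and 1020, against 838 and 716 with TMM. The replicate block gave 878 higher and 653 lower over all genes and changed no call of a member. The labels do not say whether same-numbered libraries were paired. The cause of these differences was not tested, except that fits with a library left out hold fewer samples and assume the lone library to vary like the other group.

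For 28 named members, 308 log2 values under 11 alternatives gave 6 reversals of direction, all with a library left out and all of values that did not pass. Over the 4 fits with a library left out, log2 values ran from −0.34 (without ff replicate 1) to 0.996 for Clec7a, −0.35 to 0.05325 (without ff replicate 1) for Lgals1, −0.62 to 0.25 (without dd replicate 1) for Lgals3bp, −0.07056 (without dd replicate 2) to 0.32 for Clec16a, and −0.51 to 0.31 for Clec14a (0.04 without ff replicate 1, 0.31 without dd replicate 2). With library size alone the median of all tested genes was −0.08 and that of the tested members −0.64. For members under about 30 counts per library, the part of depth in these results was not tested.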
